A study of Homo sapiens with 16 samples.

Results

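Sphingosine-1-phosphate (S1P) signalling was followed through 8 genes, taken by symbol from the 61806 genes of the deposited table: the receptors S1PR1, S1PR2, S1PR3 and S1PR5, the sphingosine kinases SPHK1 and SPHK2, the lyase SGPL1 and the phosphatase SGPP1. All 8 were found once and all passed the filter on low counts. Poly(A) RNA was sequenced from the established human cell line LX-2. It derives from hepatic stellate cells, which deposit fibrillar matrix in the liver once activated. The 4 groups of 4 replicates were wild-type cells given 100 ng/mL of recombinant TWEAK for 2 h (TWEAK), a CRISPR/Cas9 knockout of total Fn14 given PBS (Fn14 KO), a CRISPR/Cas9 knockout of Fn14alpha given PBS (Fn14alpha KO) and wild-type cells given PBS (WT). Fn14 is the receptor of the cytokine TWEAK and the product of TNFRSF12A, and the series is about a form of Fn14 whose action does not need TWEAK. All cells grew in a reduced-serum endothelial medium for 24 h before treatment. The sources used here do not say whether the knockouts are clonal. A knockout differs from WT in its line as well as its genotype, and these cannot be told apart.

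S1P is a lipid messenger made when a sphingosine kinase phosphorylates sphingosine, which is itself released from ceramide. Outside the cell it acts on a family of G-protein-coupled receptors that couple to different G proteins. Inside the cell SGPP1 returns it to sphingosine, and SGPL1 cleaves it irreversibly, the only exit of the pathway from sphingolipids. In hepatic stellate cells S1P signalling is known for effects on migration and contraction, and S1PR1 is best known from endothelial cells and lymphocytes.

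The promoters of the 4 genes that rose with TWEAK are shown so that the sequence at the responding genes can be read. Each is the 250 bases before a RefSeq transcript start (GRCh38.p14), written 5′ to 3′ on the strand of the gene, with matches to the kB consensus of NF-kB or to the AP-1 motif TGANTCA in capitals. The windows are S1PR1 at chr1:101236769-101237018 (plus strand), S1PR2 at chr19:10231332-10231581 (minus strand), S1PR3 at chr9:88990613-88990862 (plus strand) and SPHK1 at chr17:76385028-76385277 (plus strand). S1PR3 has 2 such windows and SPHK1 has 3. The first S1PR3 window was taken because it ends beside the deposited gene start, and the third SPHK1 window because it holds a match. With windows picked by unlike rules, the printed sequences cannot rank the genes by their matches.
S1PR1: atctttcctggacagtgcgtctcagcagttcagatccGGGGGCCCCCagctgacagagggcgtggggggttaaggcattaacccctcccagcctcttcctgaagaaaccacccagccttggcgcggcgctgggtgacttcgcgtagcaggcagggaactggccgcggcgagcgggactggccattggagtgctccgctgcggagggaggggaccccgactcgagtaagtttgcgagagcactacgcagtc
S1PR2: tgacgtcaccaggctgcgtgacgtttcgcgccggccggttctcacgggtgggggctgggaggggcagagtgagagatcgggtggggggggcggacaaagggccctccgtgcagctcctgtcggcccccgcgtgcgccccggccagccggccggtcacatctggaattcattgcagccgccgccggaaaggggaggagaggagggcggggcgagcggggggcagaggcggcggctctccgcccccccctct
S1PR3: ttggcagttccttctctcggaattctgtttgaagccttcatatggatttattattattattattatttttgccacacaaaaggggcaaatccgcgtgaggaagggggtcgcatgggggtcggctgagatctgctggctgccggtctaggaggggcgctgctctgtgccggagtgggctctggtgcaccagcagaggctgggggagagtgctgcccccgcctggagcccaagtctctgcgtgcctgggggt
SPHK1: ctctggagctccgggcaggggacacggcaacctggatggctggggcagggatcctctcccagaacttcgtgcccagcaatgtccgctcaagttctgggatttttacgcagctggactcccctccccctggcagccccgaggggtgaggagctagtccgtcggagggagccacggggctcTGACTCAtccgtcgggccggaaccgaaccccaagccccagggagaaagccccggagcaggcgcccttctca

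A kB consensus match stood 213 bases before the start of S1PR1, and an AP-1 match stood 71 bases before the third SPHK1 start. The printed S1PR2 and S1PR3 windows held neither. RefSeq windows were at hand for 7 of the 8 genes, 12 in all, and both strands were searched. The kB consensus was found in 2 of the 12, the other being the second window of S1PR5, and the AP-1 motif in 1 of 12. Of all 35114 promoter windows of this length, 9.96% held a kB consensus and 6.57% an AP-1 motif. The GC box GGGCGG was found in 42.6% of all windows. Of the printed windows, S1PR2 held 3 matches and S1PR1, S1PR3 and SPHK1 held 0. The second S1PR3 window, not printed, held 8, some of them overlapping each other, and each of the 2 windows of S1PR5 held 2. No match of 1 motif overlapped a match of another in these windows. The deposited start of S1PR1 (101236865) lies inside its RefSeq window, so the 2 annotations place its start differently. That of SPHK1 (76376584) lies upstream of all 3 of its windows, so the printed one is not at the deposited start.

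Total counts ran from 13335919 to 16888606 over the 16 libraries. TNFRSF12A, the check of the knockouts, was at 29.5 to 35.6 FPKM in Fn14 KO, 51.8 to 64.7 in Fn14alpha KO, 123 to 140.1 with TWEAK and 119 to 133 in WT, so the labels and the gene go together, although transcript remained in both knockouts. WT replicate 4 and Fn14 KO replicate 1 lay apart from the other libraries on the third principal component (5.43% of the variance), and results that change without them are named. Of 10 stellate and mesenchymal markers, 9 exceeded 1 FPKM in at least 1 library, and DES stayed below. COL1A2 did so only in wild-type cells, at 1.03 to 1.22 FPKM with TWEAK and 1.42 to 1.62 in WT. It was at 0.12 to 0.19 in Fn14 KO and 0.37 to 0.55 in Fn14alpha KO. Their summed level was 950 to 1024 FPKM with TWEAK, 1141 to 1223 in Fn14 KO, 613 to 630 in Fn14alpha KO and 759 to 802 in WT. VIM was the highest of them, at means of 612, 447, 259 and 378 FPKM in the same order. The list did not move as 1: COL3A1 was at 17.9 FPKM with TWEAK and 8.33 in Fn14 KO, against 23.7 in WT. Of the 9 tested against WT, edgeR (adjusted p under 0.05) called 1 higher and 1 lower with TWEAK. It called 6 and 2 in Fn14 KO and 1 and 6 in Fn14alpha KO. Of all genes tested, 6.87%, 52.9% and 42.2% were called either way. Of 10 hepatocyte and cholangiocyte markers 8 stayed under 1 FPKM in all 16 libraries, ALB and APOA1 among them, while SERPINA1 reached 2.94 and KRT7 1.67 FPKM. Of 10 leukocyte markers 8 stayed under 1 FPKM, PTPRC among them, while CD4 reached 1.83 and CD14 1.67 FPKM. Of 10 endothelial markers 7 stayed under 1 FPKM, PECAM1, CDH5, KDR and VWF among them, and TIE1, TEK and ROBO4 did not. FPKM is the read count scaled by exon length and by the total counted reads. The order of different genes by FPKM thus rests on annotated lengths, 13702 exonic bases for S1PR3 and 2803 for S1PR5.

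**Figure D1:**
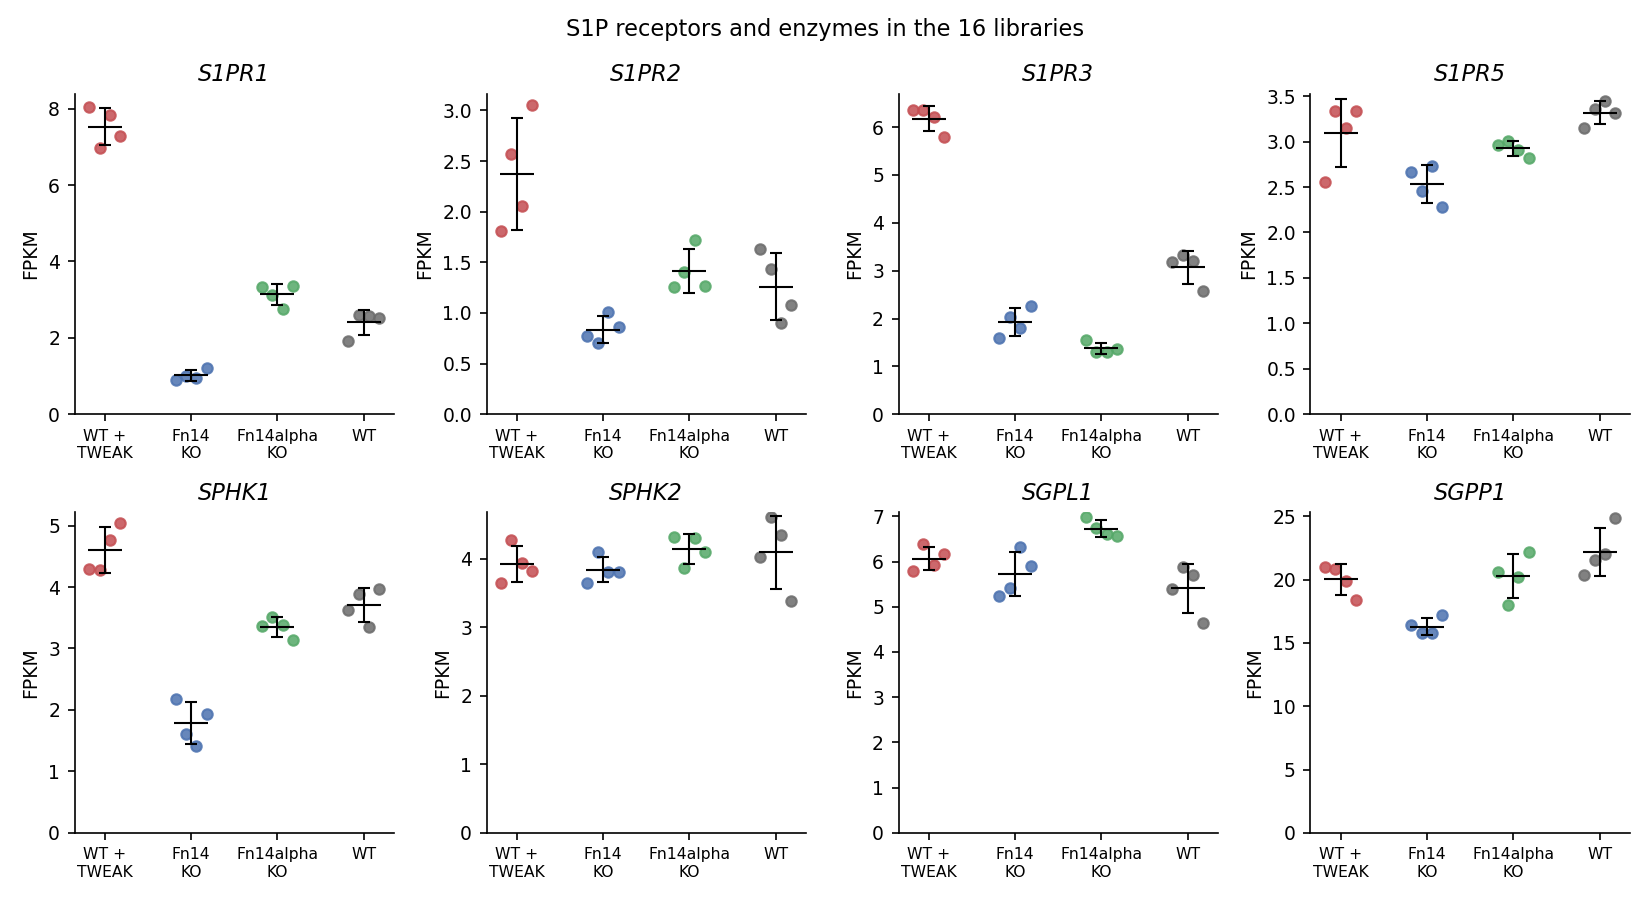
FPKM (vertical axes, from 0) of the 8 genes in the 16 libraries by group, with points for replicates and bars for mean ± SD (n = 4). S1PR1 and S1PR3 stood highest with TWEAK and S1PR1 and SPHK1 lowest in Fn14 KO, whereas SPHK2 lay between 3.38 and 4.60 FPKM throughout.

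TWEAK was compared with vehicle in wild-type cells to see what changes within 2 h. The receptors S1PR1, S1PR3 and S1PR2 and the kinase SPHK1 rose, with fitted folds of 3.25, 2.09, 1.96 and 1.29. The receptor S1PR5, the kinase SPHK2 and the S1P-removing enzymes SGPL1 and SGPP1 were not called. With edgeR's quasi-likelihood test at an adjusted p under 0.05, 4 of 8 members were called higher, where 4.82% of the 16029 genes tested were called higher, 2.05% lower and 6.87% either way. Of all calls 70.2% were higher with TMM scaling, against 43.9% with total counts. No member (0) was called lower by edgeR, by DESeq2 or by limma, nor at an unadjusted edgeR p under 0.05. The median log2 fold change was 0.30 over the members and -0.01 over all genes tested. The members were chosen with these results known, so the count describes them and tests nothing.

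S1PR1 (ENSG00000170989, GRCh38 chromosome 1, 101236865 to 101243713, plus strand), the receptor that couples to Gi proteins, had 8.04, 6.97, 7.84 and 7.28 FPKM with TWEAK, against 1.92, 2.60, 2.58 and 2.53 FPKM in WT. Every TWEAK library lay above every WT library by more than the spread within either group. The log2 fold change was 1.70 ± 0.10 (SE, n = 4 each, edgeR adjusted p = 1.47e-11), the 29th largest among 16029 genes. The counts behind it were 507 to 649 with TWEAK and 143 to 229 in WT. In bulk RNA, more cells with a transcript and more transcript per cell cannot be told apart. The summed level of the 10 endothelial markers was 18.2 to 21.5 FPKM with TWEAK and 18.04 to 20.6 FPKM in WT. Most of it was TIE1, at 17.5 ± 1.55 FPKM with TWEAK and 17.6 ± 0.923 FPKM in WT (SD, n = 4 each). Of the 4 tested, edgeR called 1 higher and 0 lower, and ROBO4 was at 0.40 to 0.64 FPKM with TWEAK and 0.20 to 0.33 FPKM in WT. The part of these markers in the rise of S1PR1 was not tested.

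S1PR3 (ENSG00000213694, chromosome 9, 88990863 to 89005155, plus strand) encodes a receptor that couples to Gi, Gq and G12/13 proteins. It had 6.35, 6.36, 6.20 and 5.79 FPKM with TWEAK, against 3.19, 3.32, 3.20 and 2.57 FPKM in WT. The groups did not overlap, and the log2 fold change was 1.07 ± 0.09 (edgeR adjusted p = 6.66e-09). S1PR2 (ENSG00000267534, chromosome 19, 10221433 to 10231331, minus strand), another receptor of the family, had 1.81, 2.57, 2.06 and 3.05 FPKM with TWEAK, against 1.63, 1.43, 0.90 and 1.08 FPKM in WT. The TWEAK libraries spread widely but all lay above WT, with a log2 fold change of 0.97 ± 0.18 (edgeR adjusted p = 6.68e-04). S1PR2 rests on few reads, 100 to 148 with TWEAK and 52 to 88 in WT. Its span overlaps that of DNMT1, a gene with 2129 to 3618 counts, on the same strand over 9854 bases. In GENCODE 29 the 2 genes share 83 exonic bases, 2.28% of S1PR2. The sources used here do not say how reads in that stretch were assigned.

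SPHK1 (ENSG00000176170, chromosome 17, 76376584 to 76387860, plus strand), the mainly cytosolic kinase, had 4.30, 4.28, 4.77 and 5.04 FPKM with TWEAK, against 3.62, 3.88, 3.35 and 3.96 FPKM in WT. The groups did not overlap, yet the step was small, 0.37 ± 0.10 (edgeR adjusted p = 0.0277). It missed the threshold without TWEAK replicate 3 (adjusted p = 0.0911), TWEAK replicate 4 (0.0982), WT replicate 1 (0.0716) or WT replicate 3 (0.0924). It also missed it with total counts (0.0608) and in both limma fits on log2 FPKM, and over all 25 alternatives its adjusted p ran from 0.00364 to 0.0985. SPHK2 (ENSG00000063176, chromosome 19), the mainly nuclear and mitochondrial kinase, was at 3.64 to 4.27 FPKM with TWEAK and 3.38 to 4.60 FPKM in WT, with a difference of -0.00 ± 0.09 (edgeR adjusted p = 0.989). S1PR5 (ENSG00000180739, chromosome 19), a receptor of natural killer cells and oligodendrocytes, differed by -0.04 ± 0.11 (edgeR adjusted p = 0.850).

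The removal enzymes stood out little with TWEAK. SGPL1 (ENSG00000166224, chromosome 10) was at 5.79 to 6.38 FPKM with TWEAK and 4.65 to 5.89 FPKM in WT, a difference of 0.22 ± 0.07 that missed the threshold (edgeR adjusted p = 0.0719). It passed with DESeq2 (0.0374), without WT replicate 2 (0.0482), without Fn14 KO replicate 1 (0.0384) and after removal of the neighbouring genes' median (0.0247), over a range of 0.0247 to 0.242. SGPP1 (ENSG00000126821, chromosome 14), the member with the highest FPKM in every library, differed by -0.09 ± 0.07 (edgeR adjusted p = 0.523).

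**Figure D2:**
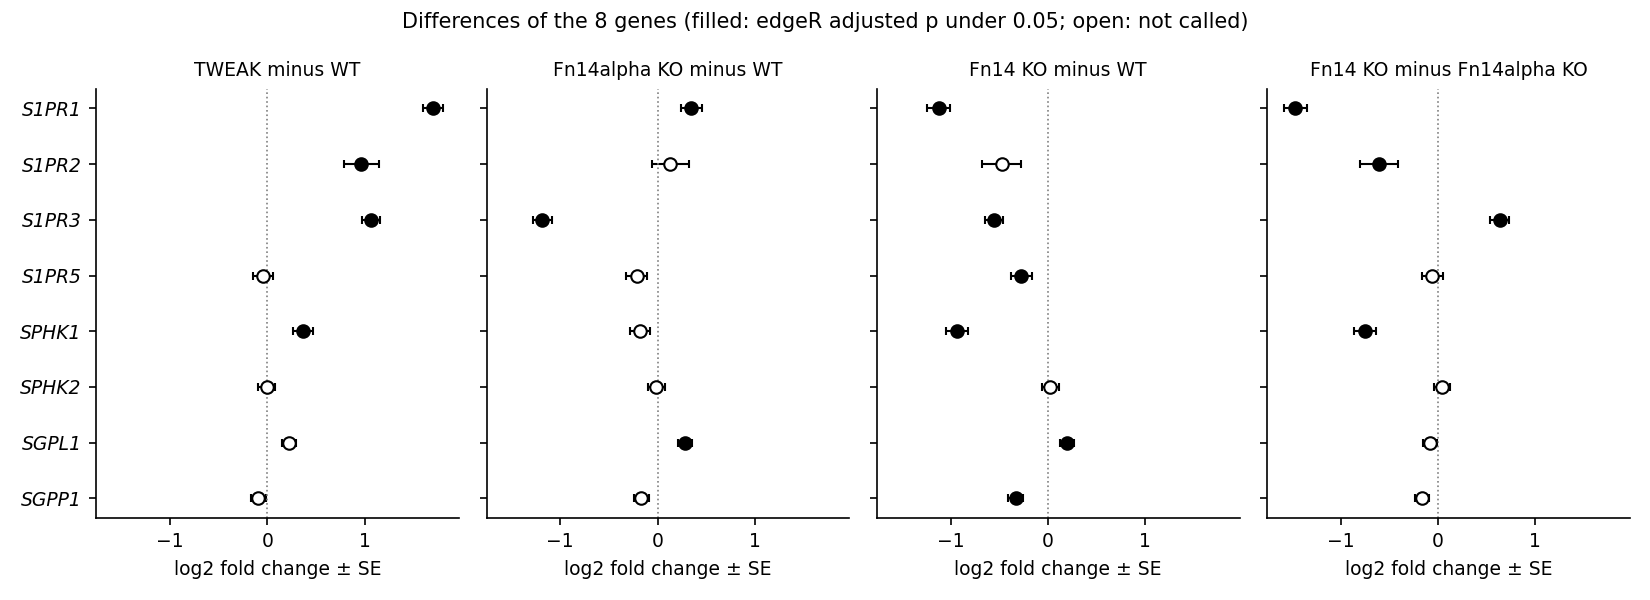
Log2 fold change ± SE (horizontal axes) of the 8 genes in the 4 comparisons of the edgeR fit, filled where the adjusted p was under 0.05. S1PR1 was at 1.70 with TWEAK and -1.12 in Fn14 KO, and S1PR3 at 1.07 and -0.55.

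The Fn14 knockout was set against WT to see what the line without total Fn14, by its label, has changed when no TWEAK is added. S1PR1 was 2.18-fold lower and SPHK1 1.91-fold lower, S1PR3 was 1.47-fold lower, SGPP1 1.26-fold and S1PR5 1.21-fold lower, and SGPL1 was 1.15-fold higher. Of the 8 members edgeR called 5 lower and 1 higher, where 26.3% of all genes tested were called lower, 26.6% higher and 52.9% either way. Of all calls 50.2% were higher with TMM scaling, against 36.0% with total counts, which moved the median of all genes to -0.12. The median log2 fold change was -0.40 over the members and -0.01 over all genes.

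S1PR1 had 0.90, 1.00, 0.96 and 1.21 FPKM in Fn14 KO, against 1.92, 2.60, 2.58 and 2.53 FPKM in WT. All Fn14 KO libraries were lower, with a log2 fold change of -1.12 ± 0.12 (edgeR adjusted p = 3.02e-08). SPHK1 had 2.18, 1.61, 1.41 and 1.93 FPKM in Fn14 KO, against 3.62, 3.88, 3.35 and 3.96 FPKM in WT. Again no library overlapped, and the difference was -0.93 ± 0.11 (edgeR adjusted p = 1.84e-07). S1PR3 had 1.60, 2.04, 1.80 and 2.27 FPKM in Fn14 KO, against 3.19, 3.32, 3.20 and 2.57 FPKM in WT, a difference of -0.55 ± 0.09 (edgeR adjusted p = 2.60e-05). These calls held under all 25 alternatives. The genes beside SPHK1 on chromosome 17 were higher in Fn14 KO, with a median of 0.42, and SPHK1 was at -1.36 with that median removed. The summed level of the 10 endothelial markers was 9.91 to 10.99 FPKM in Fn14 KO and 18.04 to 20.6 FPKM in WT, most of it TIE1, at 8.42 ± 0.395 FPKM in Fn14 KO and 17.6 ± 0.923 FPKM in WT (SD, n = 4 each). The list did not move as 1: TEK was at 0.290 FPKM in Fn14 KO and 1.46 FPKM in WT, whereas ROBO4 was at 1.32 to 1.65 FPKM in Fn14 KO and 0.20 to 0.33 FPKM in WT, and edgeR called 1 higher and 2 lower of the 4 tested. Of the 10, 0 were at 0 in every library. The part of these markers in the level of S1PR1 was not tested.

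The other differences in Fn14 KO were smaller and less firm. SGPP1 had 16.4, 15.8, 15.8 and 17.2 FPKM in Fn14 KO, against 20.4, 21.6, 22.0 and 24.9 FPKM in WT, a difference of -0.33 ± 0.08 (edgeR adjusted p = 6.46e-04). With the median of neighbouring genes removed it was -0.14 and no longer called (adjusted p = 0.129, range over its alternatives 2.04e-05 to 0.129). S1PR5 was at 2.28 to 2.73 FPKM in Fn14 KO and 3.15 to 3.45 FPKM in WT, with -0.27 ± 0.11 (edgeR adjusted p = 0.0353). It lost its call in 9 of 25 alternatives, DESeq2 (0.0652) and the removal of WT replicate 2 (0.0572), WT replicate 3 (0.0787), WT replicate 4 (0.0557), Fn14 KO replicate 2 (0.0800) or Fn14 KO replicate 4 (0.113) among them, over a range of 0.00120 to 0.322. SGPL1 overlapped between the groups, at 5.23 to 6.32 FPKM in Fn14 KO and 4.65 to 5.89 FPKM in WT. Its difference of 0.20 ± 0.07 (edgeR adjusted p = 0.0280) also fell away in 9 alternatives, over a range of 0.00530 to 0.391. Among the 9 were those without WT replicate 1 (0.0584), WT replicate 4 (0.113), Fn14 KO replicate 3 (0.128) or Fn14 KO replicate 4 (0.0542). With total counts SGPL1 was at 0.079 (edgeR adjusted p = 0.391). The limma fits on log2(FPKM + 0.1) and log2(FPKM + 1) gave 0.081 (limma adjusted p = 0.388) and 0.069 (0.389). S1PR2 was at 0.70 to 1.01 FPKM in Fn14 KO and 0.90 to 1.63 FPKM in WT and just missed the threshold (-0.47 ± 0.20, edgeR adjusted p = 0.0510), while 11 of 25 alternatives called it lower (range 0.0162 to 0.188). Those without TWEAK replicate 1 (0.0436), TWEAK replicate 4 (0.0402), Fn14 KO replicate 3 (0.0322), Fn14alpha KO replicate 3 (0.0447), WT replicate 3 (0.0162), WT replicate 4 (0.0367) or both libraries that lay apart (0.0469) were among the 11. SPHK2 differed by 0.03 ± 0.09 (edgeR adjusted p = 0.820), a direction that turned with total counts (-0.09), and with the median of its neighbours removed it was called higher at 0.27 (adjusted p = 0.0150, range 0.0150 to 0.978).

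The Fn14alpha knockout was set against WT to see which members change in cells that, by their label, lack that form of the receptor. Here the receptors parted: S1PR3 was 2.28-fold lower while S1PR1 was 1.27-fold higher, and SGPL1 was 1.22-fold higher. edgeR called 2 members higher and 1 lower of 8, where 20.0% of all genes tested were called higher, 22.2% lower and 42.2% either way. The median log2 fold change was -0.09 over the members and 0.01 over all genes. The comparisons of TWEAK, Fn14 KO and Fn14alpha KO all share the 4 WT libraries.

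S1PR3 had 1.55, 1.30, 1.30 and 1.37 FPKM in Fn14alpha KO, against 3.19, 3.32, 3.20 and 2.57 FPKM in WT. The groups stood well apart, at -1.19 ± 0.10 (edgeR adjusted p = 7.59e-10). Genes beside S1PR3 on chromosome 9 were lower too, with a median of -0.33 over up to 25 expressed genes on each side, and with that median removed S1PR3 was at -0.86 and still called (adjusted p = 2.46e-07, range over its alternatives 8.48e-37 to 4.61e-07). S1PR1 had 3.34, 3.12, 2.75 and 3.35 FPKM in Fn14alpha KO, against 1.92, 2.60, 2.58 and 2.53 FPKM in WT. The groups touched no further than 2.75 against 2.60 FPKM, with a difference of 0.35 ± 0.11 (edgeR adjusted p = 0.0104). Without WT replicate 1, the lowest of its group, the call was lost (0.25, adjusted p = 0.0530, range over its alternatives 0.00397 to 0.0530). Endothelial markers summed to 21.8 to 23.6 FPKM in Fn14alpha KO and 18.04 to 20.6 FPKM in WT, most of it TIE1, with 2 called higher and 2 lower of the 4 tested. TEK was at 0.313 FPKM in Fn14alpha KO and 1.46 FPKM in WT, and ROBO4 at 0.150 FPKM in Fn14alpha KO and 0.273 FPKM in WT. Their part in the level of S1PR1 was not tested. SGPL1 had 6.98, 6.74, 6.60 and 6.57 FPKM in Fn14alpha KO, against 5.40, 5.89, 5.70 and 4.65 FPKM in WT (0.28 ± 0.07, edgeR adjusted p = 0.00337), and held under all 25 alternatives.

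The remaining members were not called between Fn14alpha KO and WT. SPHK1 was at 3.13 to 3.51 FPKM in Fn14alpha KO and 3.35 to 3.96 FPKM in WT (-0.18 ± 0.11, edgeR adjusted p = 0.180). With the median of its neighbours removed, which was 0.22, it came to -0.40 and was called (adjusted p = 0.00564, range 0.00564 to 0.345). S1PR5 was likewise called only in that alternative (-0.22 ± 0.11, edgeR adjusted p = 0.107, against -0.34 and 0.0156, range 0.0156 to 0.271). SGPP1 was at -0.16 ± 0.07 (edgeR adjusted p = 0.0787), and was called lower without WT replicate 1 (0.0410) or Fn14alpha KO replicate 4 (0.0438), over a range of 0.0410 to 0.489. S1PR2 was at 0.13 ± 0.19 (0.602) and SPHK2 at -0.01 ± 0.09 (0.910).

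**Figure D3:**
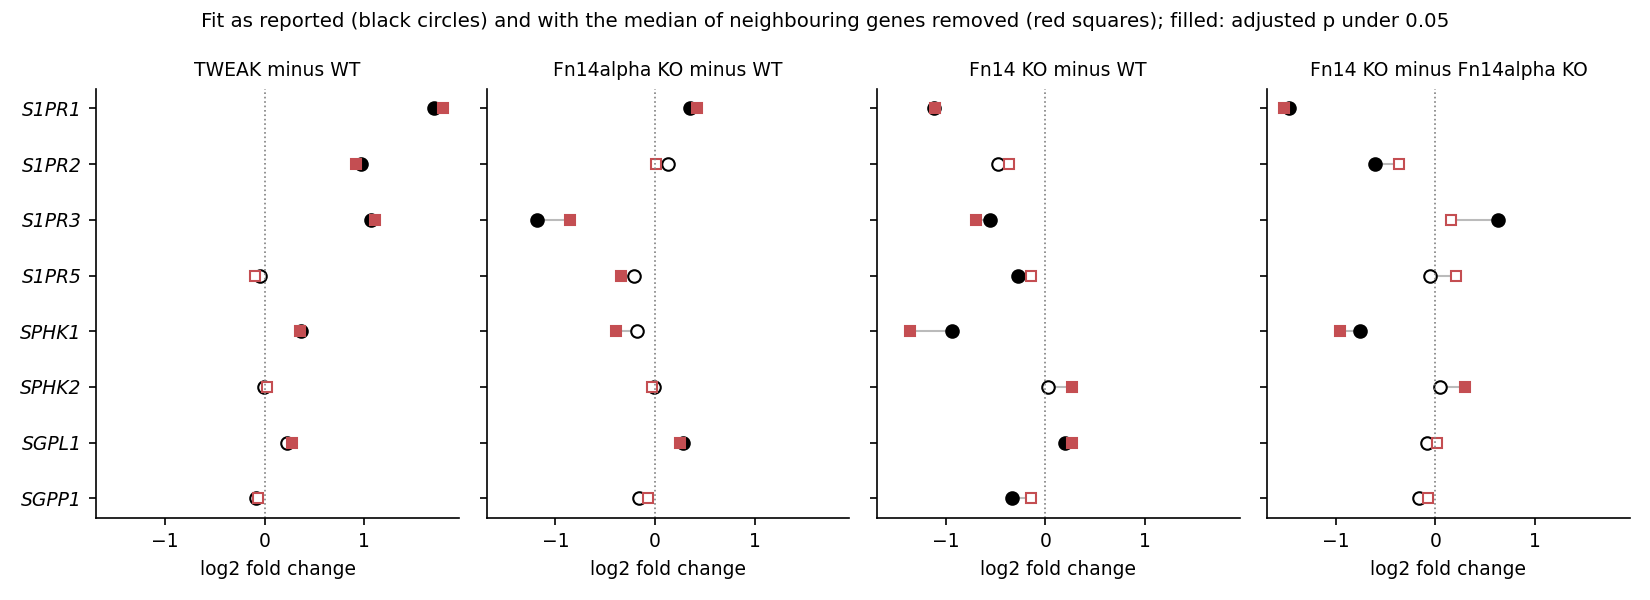
Log2 fold change (horizontal axes) in the reported fit (black circles) and with the median of up to 25 neighbouring genes on each side removed (red squares), filled where the adjusted p was under 0.05. S1PR3 moved the furthest in the comparison of the knockouts, at 0.63 as reported and 0.16 with the median removed.

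The 2 knockouts differed from each other in 4 of the 8 members. S1PR1 was 2.77-fold, SPHK1 1.69-fold and S1PR2 1.52-fold lower in Fn14 KO than in Fn14alpha KO, and S1PR3 was 1.55-fold higher. That is 3 lower and 1 higher, where 28.5% of all genes tested were called lower, 30.7% higher and 59.2% either way. Of all calls 51.9% were higher with TMM scaling, against 37.3% with total counts, which moved the median of all genes to -0.15. S1PR1 gave -1.47 ± 0.12 (edgeR adjusted p = 1.77e-10) and SPHK1 -0.75 ± 0.11 (4.07e-06), and both held under all 25 alternatives. S1PR2 had 0.77, 0.70, 1.01 and 0.86 FPKM in Fn14 KO, against 1.26, 1.40, 1.72 and 1.27 FPKM in Fn14alpha KO (-0.61 ± 0.20, edgeR adjusted p = 0.0117). S1PR3 differed by 0.63 ± 0.10 (edgeR adjusted p = 7.39e-06). With the median of neighbouring genes removed neither of these was called, S1PR2 at -0.37 (adjusted p = 0.135, range 0.00236 to 0.135) and S1PR3 at 0.16 (0.195, range 5.95e-11 to 0.195). The genes around S1PR3 differed by 0.47 between the 2 lines. SPHK2 (0.04 ± 0.09), S1PR5 (-0.06 ± 0.11), SGPL1 (-0.08 ± 0.07) and SGPP1 (-0.17 ± 0.08) were not called. With total counts in place of TMM, SGPL1 was called lower at -0.24 (adjusted p = 0.00903, range 0.00903 to 0.887) and SPHK2 turned to -0.11, uncalled. With the median of its neighbours removed SPHK2 was called higher at 0.30 (adjusted p = 0.00710, range 0.00710 to 0.935). SGPP1 was called lower in 6 of 25 alternatives, over a range of 8.50e-04 to 0.459. Those without WT replicate 4 (0.0360), Fn14alpha KO replicate 2 (0.0228) or both libraries that lay apart (0.0278) were among the 6. So were total counts (-0.32, edgeR adjusted p = 8.50e-04) and limma on log2(FPKM + 0.1) (-0.31) and log2(FPKM + 1) (-0.30). S1PR5 was called lower by limma on log2(FPKM + 0.1) alone (-0.20, limma adjusted p = 0.0494).

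Ordered by level, the groups did not fall alike for all responding genes. S1PR1 ran TWEAK, Fn14alpha KO, WT and Fn14 KO from high to low, and no library of a group overlapped the next. S1PR3 ran TWEAK, WT, Fn14 KO and Fn14alpha KO, again with no overlap between neighbours in the order. For SPHK1 the order was TWEAK, WT, Fn14alpha KO and Fn14 KO, with WT and Fn14alpha KO overlapping. The means of S1PR2 fell in the same order as those of S1PR1. Its TWEAK libraries stood above the others, while Fn14alpha KO overlapped WT and WT overlapped Fn14 KO. SPHK2 had no order beyond its spread.

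The make-up of the receptor pool shifted with these levels. The 4 receptors summed to 18.8 to 19.5 FPKM with TWEAK, 5.94 to 6.62 in Fn14 KO, 8.68 to 9.11 in Fn14alpha KO and 9.49 to 10.7 in WT. S1PR1 made up 39.3% ± 3.05 of that sum with TWEAK, 16.1% ± 1.57 in Fn14 KO, 35.4% ± 2.73 in Fn14alpha KO and 24.0% ± 3.18 in WT (SD, n = 4 each). S1PR3 made up 15.6% ± 1.03 in Fn14alpha KO, against 30.5% ± 2.32 in WT, and 32.2% ± 1.78 with TWEAK. S1PR5 was the largest mean share of FPKM both in Fn14 KO, at 40.3% ± 4.44, and in WT, at 33.04% ± 1.69. Before scaling by length, S1PR3 had more summed counts than S1PR5, 1631 against 435 in Fn14 KO and 2653 against 587 in WT. SPHK1 made up 54.0% ± 2.86 of the summed kinase FPKM with TWEAK, 31.6% ± 4.82 in Fn14 KO, 44.7% ± 1.96 in Fn14alpha KO and 47.6% ± 4.49 in WT. These shares are descriptions without a test.

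**Figure D4:**
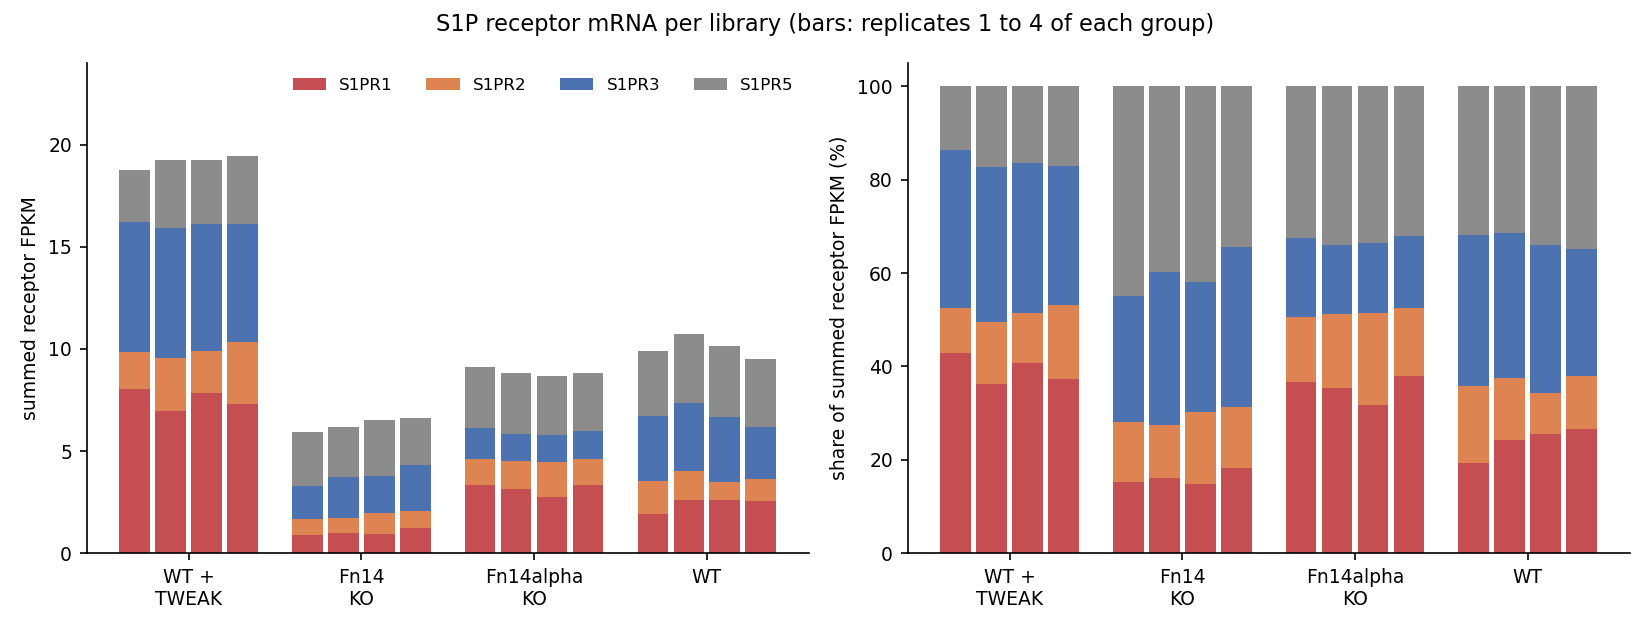
Summed FPKM of the 4 S1P receptors in each library (left) and the share of each receptor in that sum (right, percent), with 1 bar per replicate. The TWEAK bars reach 18.8 to 19.5 FPKM and the Fn14 KO bars 5.94 to 6.62 FPKM.

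Over the 16 libraries the genes whose log2 CPM ran most like S1PR1 were IL7R, the interleukin-7 receptor chain (Pearson r = 0.993), BIRC3, an inhibitor of apoptosis (0.989), and AFF3 (0.984). IL7R was at 42.0 FPKM with TWEAK, 7.67 in Fn14 KO, 21.3 in Fn14alpha KO and 16.8 in WT, the same order of groups as S1PR1. Nearest to SPHK1 were the chemokine genes CXCL3 (0.968) and CXCL2 (0.965) and the TNF receptor family gene TNFRSF9 (0.965). Nearest to S1PR3 were DCBLD2 (0.990), ST3GAL1 (0.986) and TUT7 (0.986), and nearest to S1PR2 were KLHL21 (0.940), RELT (0.915) and ARHGEF40 (0.910). S1PR5, SGPL1 and SGPP1 were nearest to CMTM3 (0.869), ZFAND3 (0.884) and SELENOF (0.941). The libraries fall into 4 groups and share their scaling, so these values mostly compare 4 group means and are given as descriptions.

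Of 67 further genes of the pathway, 56 passed the filter on low counts. S1PR4, the lymphocyte receptor, had at most 2 counts over the 4 libraries of a group and 0 in WT, and the S1P exporter SPNS2 had 17 to 27 counts per group. With TWEAK edgeR called 3 of the 56 higher and 2 lower (6.87% of all genes were called). ABCA1, a lipid exporter also linked to S1P release, rose to 23.4 ± 0.831 FPKM with TWEAK, against 10.7 ± 1.02 FPKM in WT (SD, n = 4 each; 1.19 ± 0.09, edgeR adjusted p = 4.08e-10). The arrestin gene ARRB1 rose (0.65 ± 0.10, edgeR adjusted p = 7.17e-05), as did the ceramide transporter CERT1 (0.27 ± 0.08, 0.0316). GNAI1, a Gi subunit, fell (-0.36 ± 0.09, 0.0159). The other one called lower, ALDH3A2, was named after its values were seen (-0.24 ± 0.07, edgeR adjusted p = 0.0494). Of 4 ceramidases and 13 genes of ceramide synthesis tested, edgeR called 0, with 2 and 2 at an unadjusted p under 0.05, DESeq2 called 0 and 1, and limma called 0 of either.

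In Fn14 KO edgeR called 17 of the 56 higher and 11 lower against WT (52.9% of all genes were called). The balance differed between the fits, with 11 higher and 17 lower in both limma fits on log2 FPKM. DESeq2, which tested 63 of the list genes, called 16 higher and 15 lower. The ceramide synthase CERS4 was lower by 2.41 on the log2 scale (-2.41 ± 0.17, edgeR adjusted p = 1.40e-11), at 0.455 ± 0.128 FPKM in Fn14 KO and 2.60 ± 0.156 FPKM in WT. GALC, the lysosomal galactosylceramidase, was also lower (-1.25 ± 0.09), as was ABCA1 (-1.13 ± 0.09). LPAR1, a receptor for the related lipid lysophosphatidic acid, was higher, at 10.2 ± 1.03 FPKM in Fn14 KO and 4.53 ± 0.256 FPKM in WT (1.29 ± 0.09, edgeR adjusted p = 3.60e-11). In Fn14alpha KO 6 were called higher and 20 lower (42.2% of all genes were called). ENPP2, which encodes autotaxin, the enzyme that makes lysophosphatidic acid, was lower (-1.41 ± 0.10), as were ABCA1 (-0.93 ± 0.09) and the receptor kinase GRK5 (-0.64 ± 0.09). CERS1 was higher (1.43 ± 0.18), a gene whose transcripts can also carry GDF1. Between the knockouts 23 were higher and 10 lower in Fn14 KO than in Fn14alpha KO (59.2% of all genes were called), ENPP2 (1.79 ± 0.10) and LPAR1 (1.07 ± 0.09) among the higher and CERS4 (-2.39 ± 0.17) and CERS1 (-1.14 ± 0.18) among the lower. Both limma fits on log2 FPKM called 16 higher and 16 lower here, and DESeq2 22 higher and 12 lower of 63 tested.

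**Figure D5:**
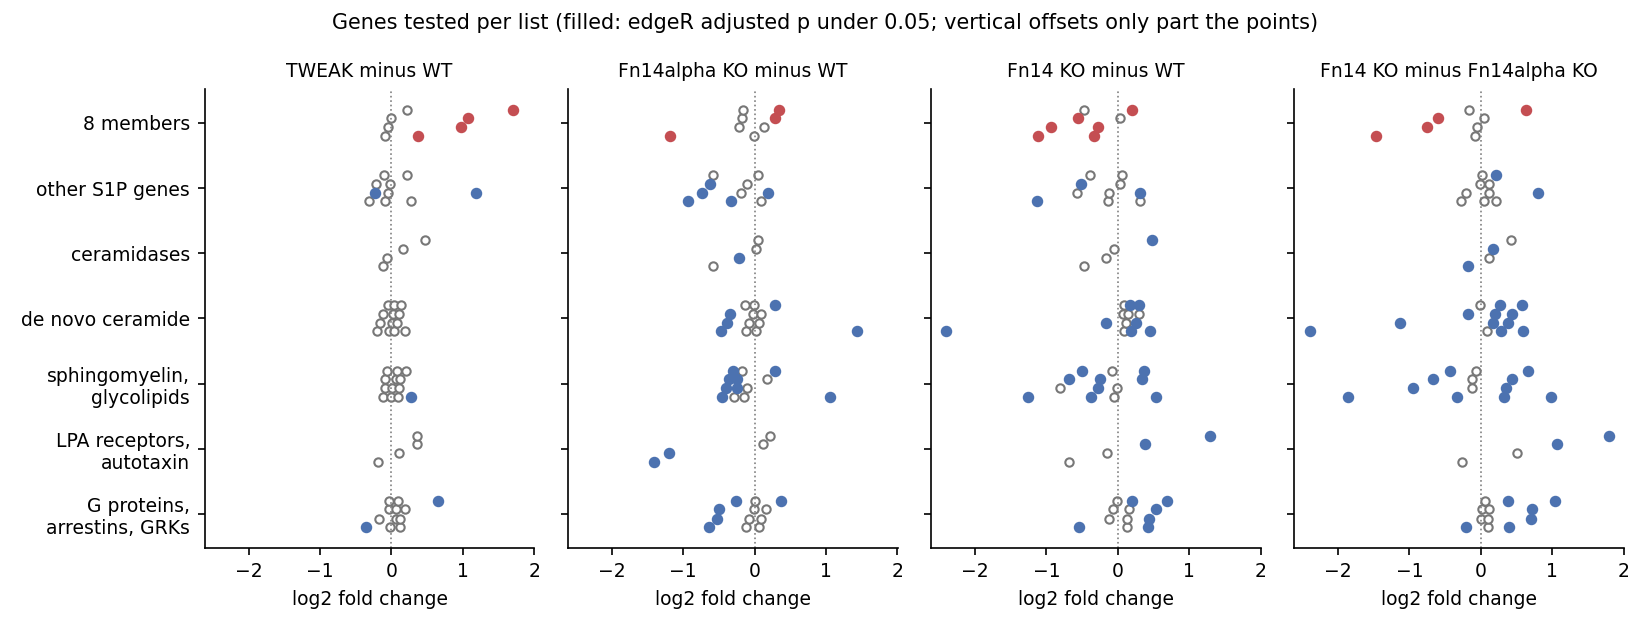
Log2 fold change (horizontal axes) of the 8 genes and of the tested genes of 6 further lists in the 4 comparisons, filled where the edgeR adjusted p was under 0.05. With TWEAK the filled points of the further lists number 5 of 56, with ABCA1 at 1.19 the highest.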

How the data were processed

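The deposited table holds raw read counts per Ensembl gene, and FPKM that the authors made from them, for 16 libraries. Every FPKM equals the count over exonic size and library total within rounding. The submitters' processing notes name HISAT2 2.0.1, HTSeq 0.6.1, DESeq2, cutadapt 1.9.1 and FastQC 0.10.1, and the builds GRCh38.p13 and hg38. The sources used here give neither the role of each tool nor the strand setting or annotation release. Without strand, SPHK2 cannot be parted from its opposite neighbour DBP over 661 exonic bases. The report gives the range of library totals.

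Counts were tested with edgeR 4.0.16 in R 4.3.3: TMM scaling, filterByExpr by group, a robust quasi-likelihood F test (two-sided), 1 mean per group over all 16 libraries, and Benjamini-Hochberg adjustment over 16029 genes. SE is the size of the log2 fold change over the square root of F. Alternatives used DESeq2 1.42.0, limma 3.58.1 on log2(FPKM + 0.1) and log2(FPKM + 1), total counts, no filter, a replicate block, the groups compared alone, each library left out, and the median of up to 25 neighbouring genes on each side (mean log2 CPM of at least 2) removed as an offset. Replicates are named only as biological, so the spread behind the p-values is that of these samples and may be technical. All 24 replicate pairs differed beyond sampling noise (chi-square per degree of freedom 2.30 to 39.0). The members and lists were chosen with earlier results of these data known. Named genes are the 8 members, up to 4 called list genes per comparison with at least 1 FPKM and no overlap, and the 3 genes closest to each called member by Pearson r among genes with at least 2 FPKM, of which only the closest is named for S1PR5, SGPL1 and SGPP1. TNFRSF12A is named as the check of the knockouts. The fit was tested on simulated data. Motif choices were made after the data were seen.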

Additional observations from a re-analysis of the deposited data

Results flagged for a closer look

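Dixon's test was run on the FPKM of each member in each group of 4, 32 groups in all, of which chance would mark about 1 in 20. It marked 1: S1PR1 in WT replicate 1, at 1.92 FPKM, against 2.53, 2.58 and 2.60 FPKM in the other WT libraries. Without that library S1PR1 was 0.25 higher in Fn14alpha KO on the log2 scale (edgeR adjusted p = 0.0530, range over its alternatives 0.00397 to 0.0530), against 0.35 with all libraries.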

How the results depend on the processing

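Over 25 alternatives and 32 member differences, 717 of 800 values kept their direction and their side of the threshold, 29 lost a call, 31 gained one and 23 turned direction without being called in the reported fit. The calls of S1PR1 and S1PR3 with TWEAK and in Fn14 KO, of S1PR2 with TWEAK, of S1PR3 and SGPL1 in Fn14alpha KO, and of S1PR1 and SPHK1 in Fn14 KO against Fn14alpha KO held in all 25, as did SPHK1 in Fn14 KO. Between the knockouts 7 members were called by limma on log2(FPKM + 0.1), against 4. Of all 16029 genes tested, that fit called 9725, against 9489. With neighbouring genes' median removed 5 members were called in Fn14alpha KO, against 3. Of all 16029 genes, 2417 were then called higher and 2559 lower, against 3207 and 3564. Without 1 library the further pathway genes called with TWEAK numbered 3 to 7, and with the replicate block 3, against 5. All genes called numbered 759 to 1604 without 1 library and 893 with the block, against 1101. The causes were not tested.

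The direction of SPHK2 turned with total counts (-0.0914 in Fn14 KO, 0.0177 in Fn14alpha KO and -0.109 between the knockouts), with limma on log2(FPKM + 0.1) (-0.0809, 0.0248 and -0.106) and on log2(FPKM + 1) (-0.0674, 0.0192 and -0.0866). Without both libraries that lay apart it was -0.0312 in Fn14 KO. Without 1 library it ran from -0.0826 to 0.0591 with TWEAK, -0.0525 to 0.0789 in Fn14 KO and -0.0929 to 0.0479 in Fn14alpha KO, and S1PR5 ran from -0.0825 to 0.0346 with TWEAK. With neighbouring genes' median removed SPHK2 came to 0.0275 with TWEAK, and between the knockouts S1PR5 came to 0.21 and SGPL1 to 0.0149.

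Replicate numbers are shared by the groups, but nothing in the labels says that a number marks a shared day, and same-numbered libraries correlated at -0.228 to 0.108 in their deviations from the group means. The replicate block changed no call of a member, and over all genes it gave 893 calls with TWEAK (1101 without it), 8205 in Fn14 KO (8472), 6454 in Fn14alpha KO (6771) and 9241 between the knockouts (9489).

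S1PR2 rests on 42 to 148 counts per library, and its log2 fold changes have SEs of 0.18 to 0.20, against 0.07 to 0.12 for the other members. Each genotype is 1 line, and TWEAK was given at 1 dose and 1 time, to wild-type cells only.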
